A study of Mus musculus with 20 samples.

Results

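The genes described here encode the nuclear subunits and assembly factors of the last 3 steps of oxidative phosphorylation: respiratory complex III, complex IV (cytochrome c oxidase) and ATP synthase, with the electron carrier cytochrome c. They were taken as the protein-coding genes whose mouse symbol begins with Uqcr, Cox4 to Cox8, Cox10 to Cox20 or Atp5, plus Cyc1 and Cycs, leaving out Cox7a1, Cox8b and Cox6a2. This gave 51 of the 48440 genes in the table, of which 48 reached 0.5 RPKM in at least 2 libraries and were tested, as were 15981 genes in all. RPKM counts reads relative to a gene's exon length and to all assigned reads of the library. The other 3 members, the testis-associated isoform genes Cox6b2, Cox7b2 and Cox8c, had at most 3 reads in any library.

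3T3-L1 is a preadipocyte line derived from Swiss mouse embryo cells that becomes adipocyte-like in culture. All 20 libraries are total RNA of 3T3-L1 adipocytes differentiated with insulin (5 µg/ml), dexamethasone (1 µM), troglitazone (10 µM) and IBMX (0.5 mM), on insulin only from day 4 and in growth medium from day 6. There were 3 libraries labelled as constituent overexpression of FOXK1 (so spelled) and 3 with an empty vector, 3 with a Foxk1 shRNA and 3 with a scrambled shRNA, 2 likewise labelled for FOXK2 and 2 with an empty vector, and 2 with a Foxk2 shRNA and 2 with a scrambled shRNA. The 4 comparisons set each manipulation against the controls made for it, in the order just given. Foxk1 and Foxk2 are paralogous forkhead transcription factors. The labels name no clone, no vector and no degree of differentiation.

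The targets were looked at first. Foxk1 had 6.16, 6.06 and 6.08 RPKM in the libraries labelled Foxk1 overexpression, against 7.11, 7.48 and 8.04 RPKM in their controls, so the RNA of the target fell (-0.28 on the log2 scale, adjusted p = 5.15e-04) where it was labelled as overexpressed, and directions drawn from these libraries rest on a label that the RNA of mouse Foxk1 goes against. Foxk2 was higher in the same libraries (0.29). Foxk1 fell in its knockdown (-1.23), and Foxk2 rose in its overexpression (0.56) and fell in its knockdown (-1.83). The RNA of the other factor was called in these comparisons too. Foxk1 fell in the Foxk2 overexpression (-0.66) and rose in the Foxk2 knockdown (0.30), and Foxk2 fell in the Foxk1 knockdown (-0.19). Depth was 16739763 to 20772823 assigned reads per library in the Foxk1 experiments and 31378224 to 36157008 in the Foxk2 experiments.

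Complex III passes electrons from ubiquinol to cytochrome c and pumps protons; cytochrome c carries them in the intermembrane space to complex IV, which reduces oxygen; ATP synthase uses the proton gradient to make ATP. Most subunits are encoded in the nucleus, and a few of the core ones in the mitochondrial genome, so both have to be made together with assembly factors that insert heme and copper. In white adipocytes these complexes rise during differentiation and supply ATP and oxidised cofactors for lipid synthesis. Promoters of the nuclear genes are known for sites of NRF1, ETS family factors (GABPA) and YY1, while Foxk proteins bind forkhead sites.

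Promoters from RefSeq (build GRCm38.p6) were available for 37 of the 51 members. The 250 bases before the start site were searched on both strands for 5 motifs. Only 1 promoter per gene was searched, also where more were listed, as for Atp5c1 and Atp5j. The NRF1 core (GCGCA followed by its reverse complement TGCGC) was in 3 members' promoters (8.11%, against 1.06% of 17492 coding promoters) and the ETS core CCGGAAG in 10 (27.0%, against 9.13%). The YY1 core AAGATGGC was in 1 (2.70%, against 1.51%), the forkhead core TGTTTAC in 1 (2.70%, against 2.58%) and the hypoxia element core ACGTG in 9 (24.3%, against 17.6%). NRF1's core reads the same on both strands, a CACGTG counts on each strand, and no other matches overlapped in these promoters. The shares are descriptions, and a missing match says only that these letters are not in this window. Among the members called in all 4 comparisons described below, Atp5b, Atp5c1, Atp5j, Atp5o, Cox7c and Uqcrfs1 had none of the 5 motifs in this window. Atp5g3, also called in all 4, had the hypoxia core and is not shown. The following 4 promoters belong to other members called in all 4, and each holds a match. They show a hypoxia core (Cycs, chr6:50566570-50566819, minus strand), an NRF1 and an ETS core (Cox6a1, chr5:115348959-115349208, minus strand), the forkhead core (Cox7a2, chr9:79759854-79760103, minus strand) and an ETS core (Cox10, chr11:64079473-64079722, minus strand). Each is written 5′ to 3′ along the gene's strand and ends at the base before the start site, with the motif letters in capitals.
Cycs: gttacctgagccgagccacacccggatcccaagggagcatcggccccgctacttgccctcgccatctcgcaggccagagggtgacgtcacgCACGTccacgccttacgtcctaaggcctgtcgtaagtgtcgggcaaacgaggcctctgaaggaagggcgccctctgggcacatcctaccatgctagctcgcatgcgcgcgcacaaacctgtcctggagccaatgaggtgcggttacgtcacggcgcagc
Cox6a1: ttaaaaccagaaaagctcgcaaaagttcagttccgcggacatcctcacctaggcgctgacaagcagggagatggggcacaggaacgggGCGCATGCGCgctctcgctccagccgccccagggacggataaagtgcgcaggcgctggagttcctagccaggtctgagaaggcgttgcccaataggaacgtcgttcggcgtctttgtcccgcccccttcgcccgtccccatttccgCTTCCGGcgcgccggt
Cox7a2: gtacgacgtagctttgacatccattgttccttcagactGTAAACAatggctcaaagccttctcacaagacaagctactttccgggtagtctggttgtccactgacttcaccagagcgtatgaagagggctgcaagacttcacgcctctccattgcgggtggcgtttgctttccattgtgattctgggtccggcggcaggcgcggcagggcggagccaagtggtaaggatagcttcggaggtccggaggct
Cox10: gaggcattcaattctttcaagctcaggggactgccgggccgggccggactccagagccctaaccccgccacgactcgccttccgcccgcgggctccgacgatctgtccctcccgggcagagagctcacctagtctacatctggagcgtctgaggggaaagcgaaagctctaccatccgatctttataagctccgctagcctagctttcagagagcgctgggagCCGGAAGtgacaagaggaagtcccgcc

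Every member that was called in these 4 comparisons was higher in the overexpressions and lower in the knockdowns. A gene was called where its Benjamini-Hochberg adjusted p in limma, over all genes tested, was under 0.05. In the libraries labelled Foxk1 overexpression 32 of the 48 tested members rose and 0 fell, where 47.8% of all genes tested were called, 24.1% higher and 23.8% lower. In the Foxk1 knockdown 0 rose and 25 fell, where 35.9% of all genes were called, 20.4% higher and 15.5% lower. In the Foxk2 overexpression 39 rose and 0 fell, where 45% of all genes were called, 23% higher and 22% lower. In the Foxk2 knockdown 0 rose and 34 fell, where 33.7% of all genes were called, 18% higher and 15.7% lower. The members' median log2 fold changes were 0.22, -0.13, 0.53 and -0.24 in that order, while the median of all genes tested was between 0 and 0.02 in each. Leaving out the second control library of the Foxk2 knockdown left 21 falls called there.

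Most members are abundant, and abundant genes were called more often. The 9725 genes with a mean of 200 reads or more over all 20 libraries hold 47 of the tested members and all of their calls. Among them, 31.5% rose in the libraries labelled Foxk1 overexpression and 21.3% fell in the Foxk1 knockdown. In the same set 31.0% rose in the Foxk2 overexpression and 22.8% fell in the Foxk2 knockdown. Not every call rests on so many reads. Cox20, called in the Foxk2 experiments alone, passed through its Foxk1 libraries. It had 0.752 to 1.59 RPKM in the Foxk2 controls, with as few as 23 reads in a library. RPKM ranges lay apart, with every manipulated library above its controls, for 39 members in the labelled Foxk1 overexpression (26.4% of all genes; 25.8% lay below and 52.3% apart in either direction). They lay apart for 45 members in the Foxk2 overexpression, 43 above (36.2% of all genes) and 2 below (34.1%), with 70.3% of all genes apart in either direction. They lay wholly below the controls for 26 members in the Foxk1 knockdown (18.9% of all genes; 25.3% lay above and 44.2% apart). They lay wholly below for 42 in the Foxk2 knockdown (32.5% of all genes; 34.7% lay above and 67.2% apart).

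**Figure D1:**
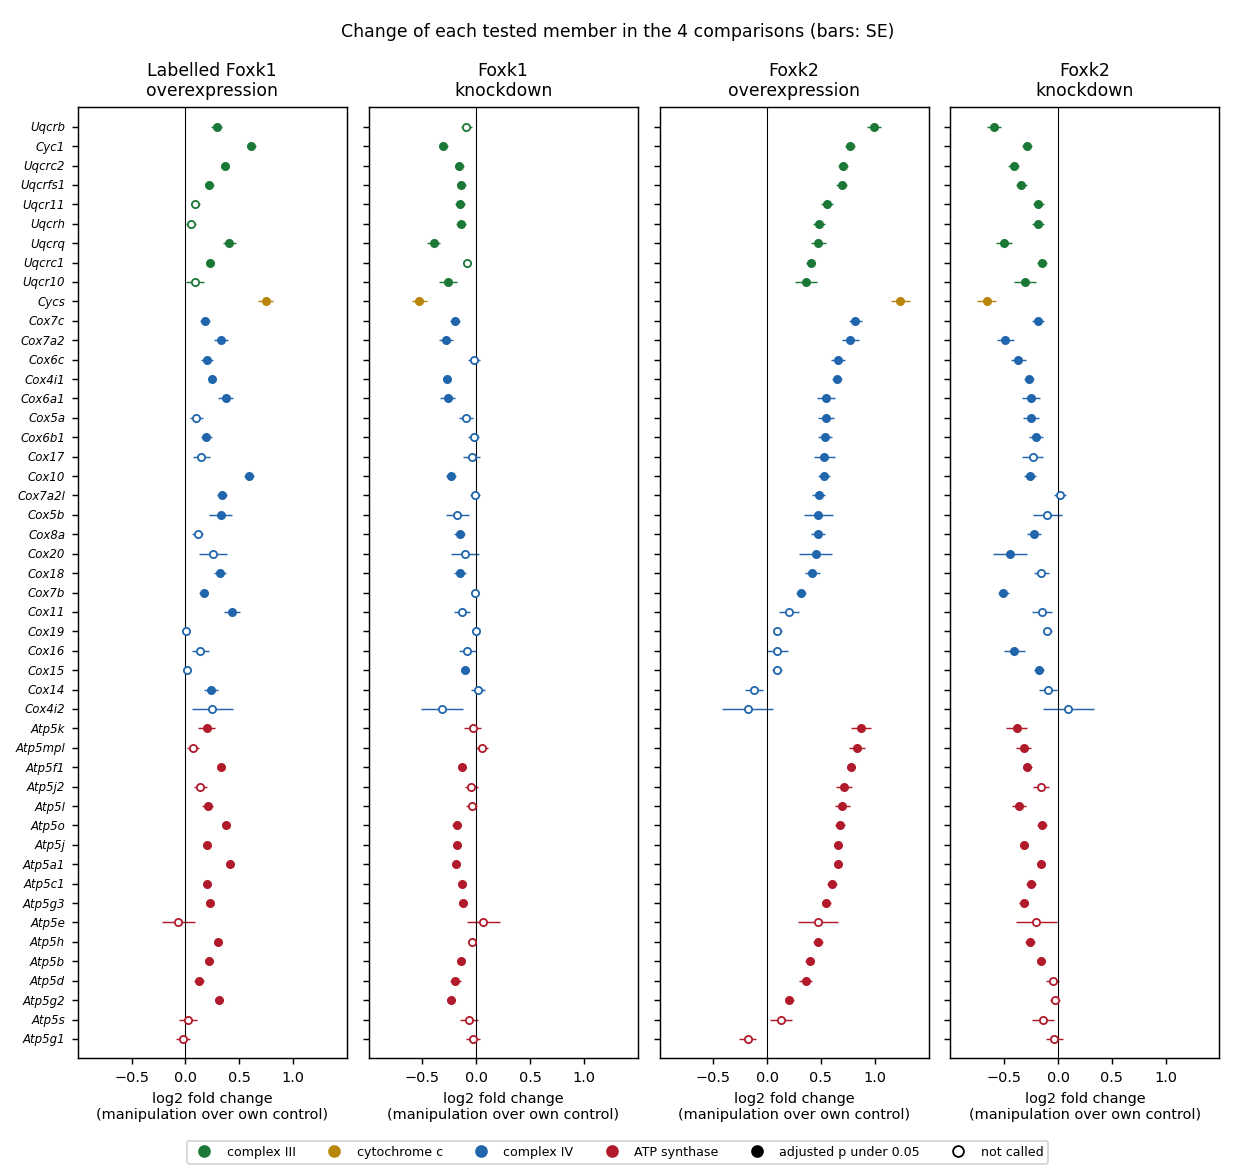
Log2 fold change of each of the 48 tested members (points, with SE bars) in the 4 comparisons, each against its own controls, grouped by complex and filled where called. Called members lie right of 0 in both overexpressions (32 and 39) and left of 0 in both knockdowns (25 and 34).

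Summed over subunits, each complex was higher than in the controls in both overexpressions and lower in both knockdowns. The 9 complex III genes together had 2182 and 2252 RPKM in the Foxk2 overexpression libraries, against 1418 and 1549.95 RPKM in their controls, and 1319 and 1272 RPKM in the Foxk2 knockdown libraries, against 1599 and 1617 RPKM in their controls. The sums in the Foxk1 experiments were 2646, 2767 and 2601 RPKM in the libraries labelled Foxk1 overexpression, against 2196, 2232 and 2255 RPKM in their controls, and 1525, 1536 and 1424 RPKM in the Foxk1 knockdown libraries, against 1697, 1767 and 1736 RPKM in their controls. The ranges did not overlap in any of the 4. As ratios of group means, complex III stood at 1.2, 0.863, 1.49 and 0.806 times its controls in the order of the comparisons, the 14 structural complex IV genes at 1.18, 0.877, 1.46 and 0.831 times, and the 16 structural ATP synthase genes at 1.18, 0.928, 1.46 and 0.869 times. All 51 members took 3.39% of all RPKM in the libraries labelled Foxk1 overexpression, against 2.92% in their controls. Their share was 2.24% in the Foxk1 knockdown, against 2.49% in its controls. It was 3.10% in the Foxk2 overexpression, against 2.13% in its controls, and 1.98% in the Foxk2 knockdown, against 2.46% in its controls.

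**Figure D2:**
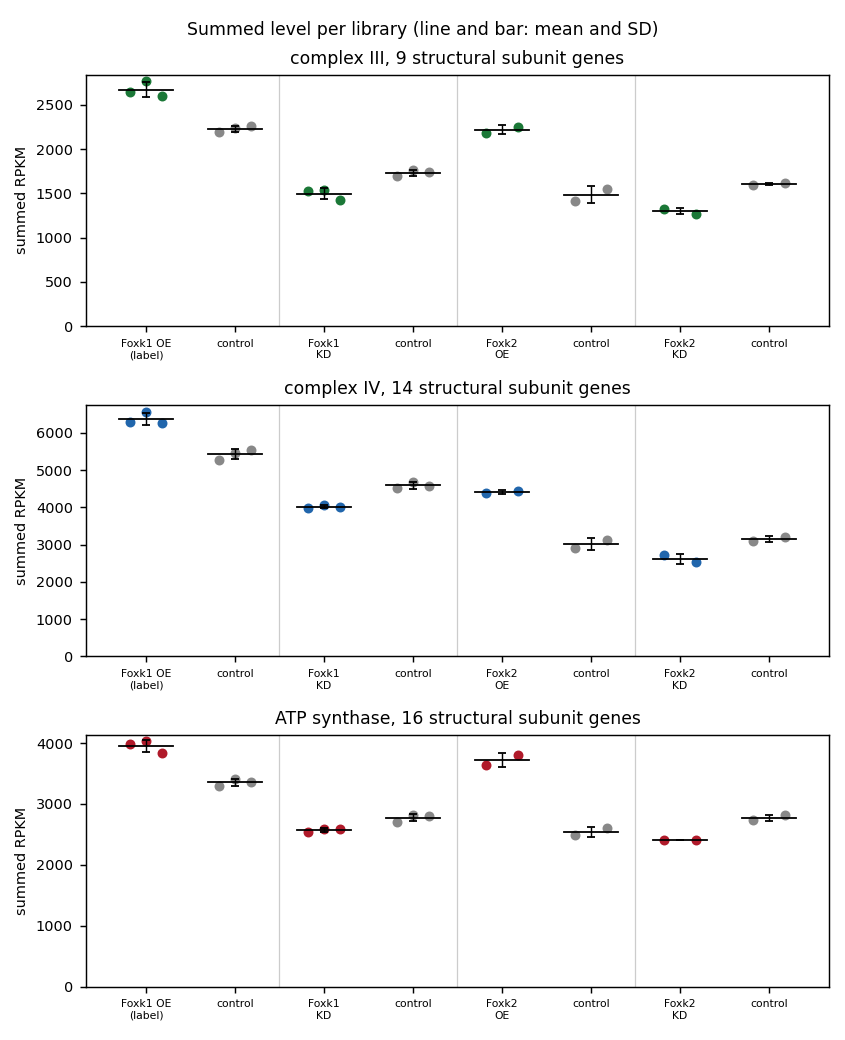
Summed RPKM of the structural subunit genes of complex III, complex IV and ATP synthase in each library (points), with the group mean and SD, each manipulation left of its grey controls. In every panel both overexpressions lie above their controls and both knockdowns below, with the widest gap in the Foxk2 overexpression (complex III at 1.49 times its controls).

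Markers of other cell states moved with these groups. Of 8 preadipocyte and fibroblast markers, 8 fell in both overexpressions and 8 rose in both knockdowns. Their summed level was 278 to 292 RPKM in the libraries labelled Foxk1 overexpression, against 742 to 893 RPKM in their controls, and 2515 to 2643 RPKM in the Foxk1 knockdown, against 1413 to 1525 RPKM in its controls. It was 264 to 284 RPKM in the Foxk2 overexpression, against 603 to 617 RPKM in its controls, and 1126 to 1187 RPKM in the Foxk2 knockdown, against 408 to 411 RPKM in its controls. The sum of 10 adipocyte markers was lower than in the controls in all 4 manipulations, with 2 markers higher and 6 lower in the labelled Foxk1 overexpression, 7 lower in the Foxk1 knockdown, 2 higher and 7 lower in the Foxk2 overexpression, and 1 higher and 4 lower in the Foxk2 knockdown. It was 9040.1 to 9078 RPKM in the libraries labelled Foxk1 overexpression, against 13662 to 13999 RPKM in their controls, and 10785 to 11364 RPKM in the Foxk1 knockdown, against 12705 to 13290.4 RPKM in its controls. It was 7555 to 7561 RPKM in the Foxk2 overexpression, against 12061 to 12204 RPKM in its controls, and 11183 to 11501 RPKM in the Foxk2 knockdown, against 13122 to 13213 RPKM in its controls. Brown adipocyte markers (5 genes) summed to 46.1 to 47.4 RPKM in the libraries labelled Foxk1 overexpression, against 6.66 to 7.76 RPKM in their controls, and to 43.3 to 51.3 RPKM in the Foxk2 overexpression, against 4.34 to 5.33 RPKM in its controls. Both sums were carried by Cidea and Elovl3, which rose in both overexpressions, while Ucp1 and Dio2 were too low to be tested and Ppargc1a rose in the Foxk2 overexpression alone. They summed to 2.43 to 2.53 RPKM in the Foxk1 knockdown, where 1 fell (Cidea), against 2.87 to 3.34 RPKM in its controls, and to 3.63 to 3.85 RPKM in the Foxk2 knockdown, where 2 fell (Cidea and Elovl3), against 9.56 to 10.5 RPKM in its controls. Macrophage and skeletal muscle markers (4 genes each) summed to under 5 RPKM in every library. The part of these states in the members' changes was not tested, and in these bulk RNA samples fewer cells of a type and less RNA per cell cannot be told apart.

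The gene with the widest change was Cycs, which encodes somatic cytochrome c (chromosome 6, 50562563 to 50566538, minus strand, GRCm38). Cycs had 216, 214 and 193 RPKM in the libraries labelled Foxk1 overexpression, against 114, 134 and 123 RPKM in their controls. It had 65.2, 69.6 and 56.2 RPKM in the Foxk1 knockdown libraries, against 91.9, 93.03 and 89.98 RPKM in their controls. All manipulated libraries lay outside the range of their controls, above in the overexpression and below in the knockdown. In the Foxk2 experiments Cycs had 53.2 and 57.6 RPKM in the Foxk2 overexpression libraries, against 23.1 and 23.2 RPKM in their controls. The level was 17.9 and 17.7 RPKM in the Foxk2 knockdown libraries, against 27.7 and 29.4 RPKM in their controls, again without overlap. On the log2 scale the changes were 0.75 ± 0.071 (SE, adjusted p = 3.78e-07), -0.53 ± 0.071, 1.24 ± 0.087 and -0.66 ± 0.087, with adjusted p of 2.71e-05, 1.60e-08 and 2.31e-05 for the last 3. Near-identical copies (99% identity or more) cover 32.1% of its transcript, among them processed pseudogenes, so its level is uncertain.

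Of the 9 complex III genes, 6 rose in the libraries labelled Foxk1 overexpression and 7 fell in the Foxk1 knockdown. In the Foxk2 overexpression 9 rose, and in the Foxk2 knockdown 9 fell. Of all genes tested, 24.1% and 23% rose in the overexpressions, and 15.5% and 15.7% fell in the knockdowns (Foxk1 first). Cyc1 encodes cytochrome c1, the heme subunit that hands electrons to cytochrome c (chromosome 15, 76343523 to 76346260, plus strand). Cyc1 had 461, 484 and 459 RPKM in the libraries labelled Foxk1 overexpression, against 298, 308 and 311 RPKM in their controls. It had 183, 190.4 and 186 RPKM in the Foxk1 knockdown libraries, against 235, 234 and 223 RPKM in their controls. The groups did not overlap in either. Under Foxk2 overexpression Cyc1 had 448 and 467 RPKM in the Foxk2 overexpression libraries, against 254 and 283 RPKM in their controls. Its level was 235 and 228 RPKM in the Foxk2 knockdown libraries, against 279 and 285 RPKM in their controls. The log2 changes were 0.61 ± 0.039 (SE, adjusted p = 3.64e-09), -0.31, 0.77 and -0.29, and all 4 were called (largest adjusted p = 2.08e-04).

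Uqcrb encodes the ubiquinone-binding supernumerary subunit (chromosome 13, 66900617 to 66905378, minus strand) and had the widest difference between the Foxk1 and the Foxk2 knockdown. Uqcrb had 92.3 and 95.6 RPKM in the Foxk2 overexpression libraries, against 48.1 and 46.1 RPKM in their controls. It had 37.98 and 43.7 RPKM in the Foxk2 knockdown libraries, against 60.6 and 63.1 RPKM in their controls. Neither pair of groups overlapped, and the changes were 0.99 ± 0.065 (SE, adjusted p = 8.18e-09) and -0.60 ± 0.065 (SE, adjusted p = 3.99e-06). In the Foxk1 experiments Uqcrb had 246, 254 and 234 RPKM in the libraries labelled Foxk1 overexpression, against 198, 206 and 195 RPKM in their controls. It had 142, 142 and 129 RPKM in the Foxk1 knockdown libraries, against 139, 149 and 152 RPKM in their controls. The rise was 0.29 ± 0.053 (SE, adjusted p = 3.22e-04), while in the knockdown the groups overlapped and the value of -0.09 was not called (adjusted p = 0.199; with voom on recovered reads 0.0497).

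Uqcrq, another small subunit next to cytochrome b, was among the 3 members that fell most in the Foxk1 knockdown. Uqcrq had 160.4, 161 and 162 RPKM in the Foxk1 knockdown libraries, against 222, 214 and 201 RPKM in their controls. It had 169.9 and 152 RPKM in the Foxk2 knockdown libraries, against 228 and 228 RPKM in their controls. Knockdown libraries lay below their controls throughout (-0.40 ± 0.058 (SE, adjusted p = 6.17e-05) and -0.50 ± 0.071 (SE, adjusted p = 4.73e-05)). Uqcrq had 373, 401 and 371 RPKM in the libraries labelled Foxk1 overexpression, against 265, 297 and 302 RPKM in their controls. It had 287 and 301 RPKM in the Foxk2 overexpression libraries, against 199.6 and 223 RPKM in their controls. Both overexpressions lay above their controls, with log2 changes of 0.41 and 0.48.

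The core protein gene Uqcrc2 and Uqcrfs1, which encodes the Rieske iron-sulfur protein, were also called in all 4 comparisons, with no overlap of groups in any. Uqcrc2 had 152, 149 and 150.0 RPKM in the libraries labelled Foxk1 overexpression, against 117, 119.7 and 112 RPKM in their controls. It had 86.03, 84.5 and 83.8 RPKM in the Foxk1 knockdown libraries, against 91.1, 93.8 and 98.98 RPKM in their controls. These are a rise of 0.37 and a fall (-0.16). Uqcrc2 had 147 and 163 RPKM in the Foxk2 overexpression libraries, against 95.6 and 94.1 RPKM in their controls. It had 82.3 and 88.7 RPKM in the Foxk2 knockdown libraries, against 113 and 114 RPKM in their controls, changes of 0.71 and -0.41. Uqcrfs1 had 213, 213 and 210.4 RPKM in the libraries labelled Foxk1 overexpression, against 179, 188 and 178 RPKM in their controls. It had 147, 150.1 and 147 RPKM in the Foxk1 knockdown libraries, against 154, 171 and 165 RPKM in their controls. The second difference is small (-0.14, adjusted p = 0.0183) and is lost in a model of the 2 groups alone (0.0534). Uqcrfs1 had 246 and 251 RPKM in the Foxk2 overexpression libraries, against 146 and 162 RPKM in their controls. It had 147 and 139.6 RPKM in the Foxk2 knockdown libraries, against 178 and 185 RPKM in their controls, changes of 0.69 and -0.34. The other core protein gene, Uqcrc1, rose by 0.23 and 0.40 in the overexpressions and fell in the Foxk2 knockdown (-0.15); its value of -0.09 in the Foxk1 knockdown was not called. The small subunit genes Uqcrh (hinge protein), Uqcr10 and Uqcr11 were called in both knockdowns (-0.30 to -0.14) and in the Foxk2 overexpression (0.36 to 0.56), but had 0.05 to 0.09 in the libraries labelled Foxk1 overexpression, where none was called.

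**Figure D3:**
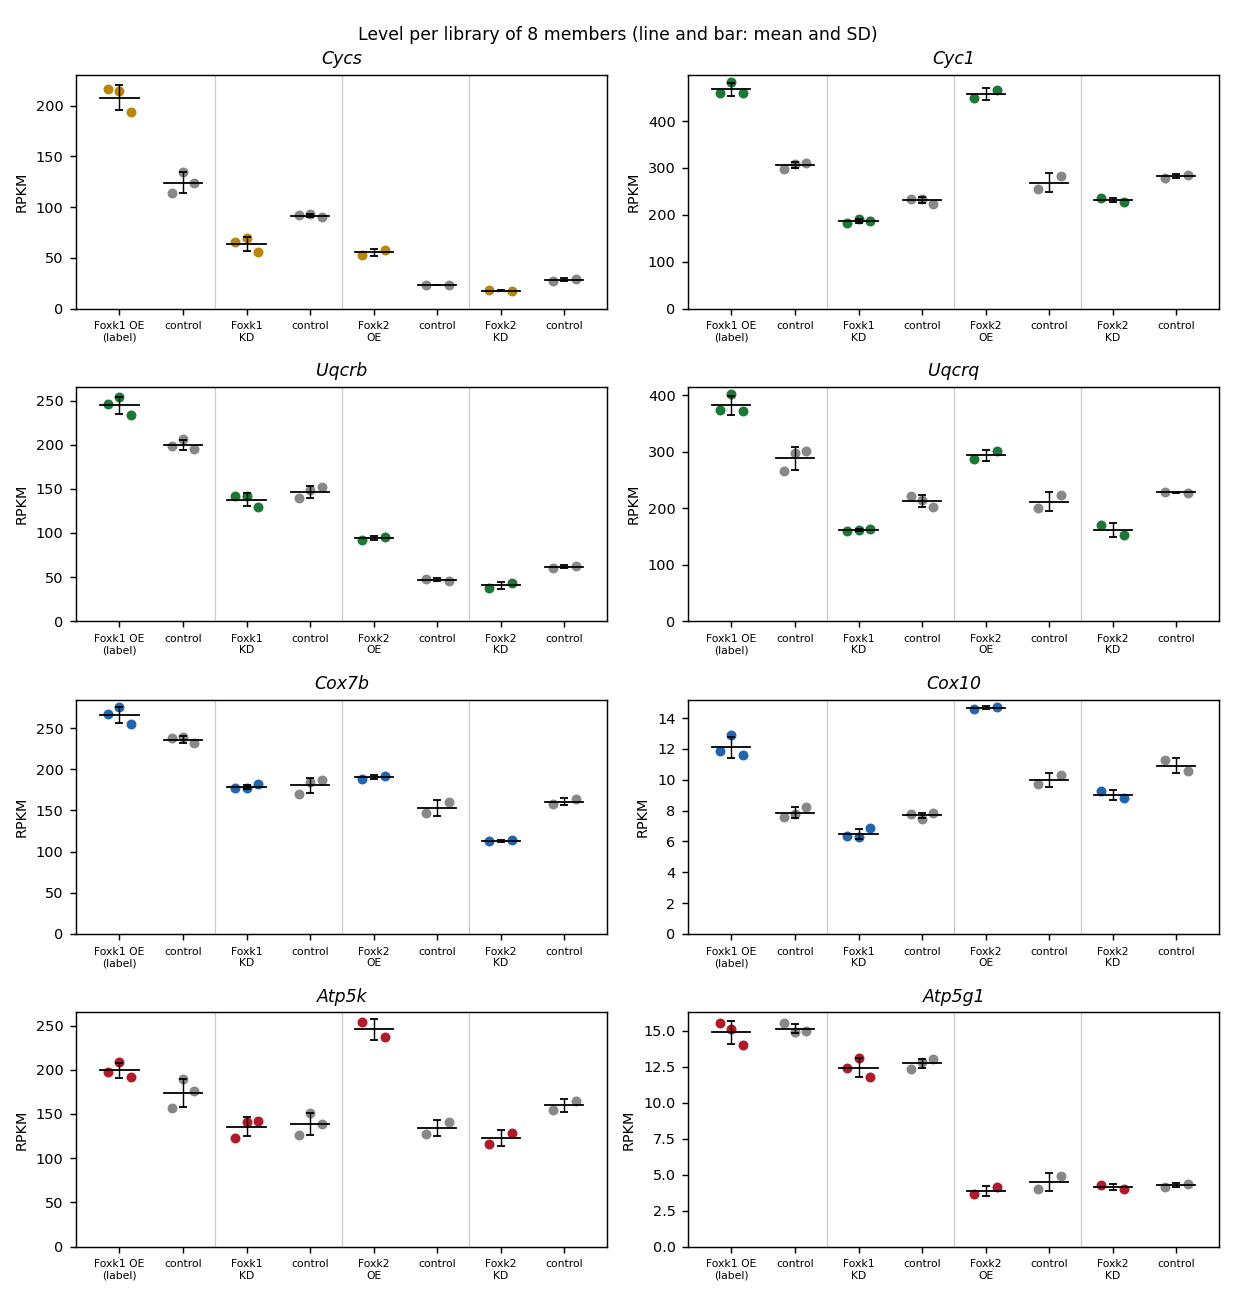
RPKM per library of Cycs, Cyc1, Uqcrb, Uqcrq, Cox7b, Cox10, Atp5k and Atp5g1 (points), with group mean and SD, each manipulation left of its grey controls. Cycs, Cyc1, Uqcrq and Cox10 lie apart from their controls in all 4 comparisons, while Atp5g1 overlaps its controls in each.

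Of the 11 tested structural genes of complex IV, 8 rose in the libraries labelled Foxk1 overexpression and 5 fell in the Foxk1 knockdown. In the Foxk2 overexpression 10 rose, and in the Foxk2 knockdown 9 fell. Of all genes tested, 24.1% and 23% rose in the overexpressions, and 15.5% and 15.7% fell in the knockdowns (Foxk1 first). Cox4i1 encodes the widely expressed form of subunit 4, which takes part in the regulation of the enzyme by ATP. Cox4i1 had 729, 757 and 707 RPKM in the libraries labelled Foxk1 overexpression, against 604, 622 and 623 RPKM in their controls. It had 476, 448 and 438 RPKM in the Foxk1 knockdown libraries, against 543, 551 and 549 RPKM in their controls. The rise of 0.25 was not kept after quantile normalization, where the value was 0.0044. Cox4i1 had 810.4 and 829.7 RPKM in the Foxk2 overexpression libraries, against 509 and 537 RPKM in their controls. It had 451 and 429 RPKM in the Foxk2 knockdown libraries, against 527 and 536 RPKM in their controls. The 4 groups all lay apart from their controls, with log2 changes of -0.27, 0.65 and -0.27 in the other 3. Cox4i2, the isoform of lung and of hypoxic cells, held at most 0.187% of the summed Cox4 level in any library. Cox4i2 had 0.476, 0.635 and 1.33 RPKM in the libraries labelled Foxk1 overexpression, against 0.406, 0.513 and 0.811 RPKM in their controls. It had 0.32, 0.379 and 0.371 RPKM in the Foxk1 knockdown libraries, against 0.55, 0.586 and 0.572 RPKM in their controls. Cox4i2 had 0.269 and 0.404 RPKM in the Foxk2 overexpression libraries, against 0.456 and 0.435 RPKM in their controls. At 0.647 and 0.331 RPKM in the Foxk2 knockdown libraries, against 0.372 and 0.458 RPKM in their controls, it was not called in any comparison.

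Cox6a1 and Cox7a2 encode the broadly expressed isoforms of subunits whose muscle forms are separate genes. Cox6a1 had 1766, 2030.1 and 1831 RPKM in the libraries labelled Foxk1 overexpression, against 1338, 1428 and 1580.2 RPKM in their controls. It had 1086, 1072 and 1049 RPKM in the Foxk1 knockdown libraries, against 1376, 1283 and 1206 RPKM in their controls. Groups lay apart in both (0.37 and -0.27). Cox6a1 had 1337 and 1329 RPKM in the Foxk2 overexpression libraries, against 874 and 953 RPKM in their controls. It had 824 and 747 RPKM in the Foxk2 knockdown libraries, against 932 and 936 RPKM in their controls, changes of 0.55 and -0.25 (adjusted p = 0.0275 for the second, 0.0917 with no filter on low values). Cox7a2 had 353, 333 and 339.6 RPKM in the libraries labelled Foxk1 overexpression, against 281, 266 and 268 RPKM in their controls. It had 167, 179 and 149.6 RPKM in the Foxk1 knockdown libraries, against 186, 197 and 219 RPKM in their controls. The changes were 0.33 and -0.28, without overlap. Cox7a2 had 279 and 299 RPKM in the Foxk2 overexpression libraries, against 159 and 179 RPKM in their controls. It had 145 and 147 RPKM in the Foxk2 knockdown libraries, against 202 and 209.6 RPKM in their controls, changes of 0.77 ± 0.08 and -0.49 ± 0.08. Cox7a2l encodes a related protein that joins complexes III and IV in supercomplexes, and it was called in the overexpressions alone. Cox7a2l had 139.6, 131 and 139.6 RPKM in the libraries labelled Foxk1 overexpression, against 109, 109.8 and 106 RPKM in their controls. It had 159 and 178 RPKM in the Foxk2 overexpression libraries, against 122 and 119 RPKM in their controls, rises of 0.34 and 0.48. Knockdown and control libraries overlapped for Cox7a2l. It had 99.3, 95.8 and 95.7 RPKM in the Foxk1 knockdown libraries, against 92.3, 96.9 and 104 RPKM in their controls. It had 119 and 128 RPKM in the Foxk2 knockdown libraries, against 122 and 121 RPKM in their controls.

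Cox7b and Cox7c encode further small subunits. Cox7b had 112 and 113 RPKM in the Foxk2 knockdown libraries, against 158 and 164 RPKM in their controls. It had 178, 177 and 182 RPKM in the Foxk1 knockdown libraries, against 169.8, 184 and 187 RPKM in their controls. The Foxk2 knockdown thus gave a fall of -0.51 ± 0.05 (SE, adjusted p = 1.28e-06) with groups apart, while the Foxk1 knockdown value of -0.01 was not called and its groups overlapped. Cox7b had 267, 275 and 255 RPKM in the libraries labelled Foxk1 overexpression, against 238, 239 and 231 RPKM in their controls. It had 189 and 192 RPKM in the Foxk2 overexpression libraries, against 146 and 160.1 RPKM in their controls, rises of 0.17 and 0.31. Cox7c stood far lower in the Foxk2 experiments. Cox7c had 29.1 and 31.9 RPKM in the Foxk2 overexpression libraries, against 16.8 and 17.3 RPKM in their controls. It had 14.2 and 14.5 RPKM in the Foxk2 knockdown libraries, against 16.2 and 16.6 RPKM in their controls. The changes were 0.82 and -0.19, the second lost with voom (adjusted p = 0.0884) and in all 4 fits that left out a library (0.0552 to 0.125). Cox7c had 389.7, 405 and 383 RPKM in the libraries labelled Foxk1 overexpression, against 342, 360.1 and 338 RPKM in their controls. It had 227, 229 and 245 RPKM in the Foxk1 knockdown libraries, against 249, 279 and 279 RPKM in their controls, changes of 0.18 and -0.20 without overlap. The first was 0.014 after quantile normalization (adjusted p = 0.838). Copies cover 32.9% of its transcript.

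Cox6b1 encodes the subunit that faces the intermembrane space. Cox6b1 had 397, 368 and 353 RPKM in the libraries labelled Foxk1 overexpression, against 339, 321 and 316 RPKM in their controls. It had 375 and 379.5 RPKM in the Foxk2 overexpression libraries, against 248 and 272 RPKM in their controls, rises of 0.19 and 0.54 without overlap. The first was 0.025 after quantile normalization (adjusted p = 0.755). In the knockdowns only the Foxk2 value was called. Cox6b1 had 255, 273 and 265 RPKM in the Foxk1 knockdown libraries, against 254, 269.7 and 283 RPKM in their controls. It had 248 and 242 RPKM in the Foxk2 knockdown libraries, against 275 and 291 RPKM in their controls, differences of -0.02 and -0.21. The Foxk2 call for Cox6b1 was lost in 3 of the 4 fits that left out a library (adjusted p of 0.0512 to 0.150). Its partner Cox6b2 was listed at 0 in all control and knockdown libraries of the Foxk1 experiments and at 0, 0.0904 and 0.0943 RPKM in the libraries labelled Foxk1 overexpression. Cox6b2 had 0.0273 and 0.0288 RPKM in the Foxk2 overexpression libraries, against 0.025 and 0.0843 RPKM in their controls. It had 0.0575 and 0 RPKM in the Foxk2 knockdown libraries, against 0.0529 and 0 RPKM in their controls, too few reads for a comparison. Of the remaining structural genes, Cox5a, Cox5b, Cox6c and Cox8a rose in the Foxk2 overexpression (0.47 to 0.66). Cox5a, Cox6c and Cox8a fell in the Foxk2 knockdown (-0.37 to -0.22), and Cox8a alone of the 4 fell in the Foxk1 knockdown (-0.15).

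Of the 9 tested assembly factors of complex IV, 4 rose in each overexpression, 3 fell in the Foxk1 knockdown and 4 in the Foxk2 knockdown. Of all genes tested, 24.1% and 23% rose in the overexpressions, and 15.5% and 15.7% fell in the knockdowns (Foxk1 first). Among genes with a mean of 200 reads or more, these shares were 31.5% and 31%, and 21.3% and 22.8%. Cox10 encodes the farnesyltransferase that makes heme O, the first step to the heme A of complex IV (chromosome 11, 63962627 to 64079468, minus strand), and was called in all 4 comparisons. Cox10 had 11.8, 12.9 and 11.6 RPKM in the libraries labelled Foxk1 overexpression, against 7.58, 7.75 and 8.25 RPKM in their controls. It had 6.33, 6.26 and 6.84 RPKM in the Foxk1 knockdown libraries, against 7.77, 7.48 and 7.82 RPKM in their controls. Libraries did not overlap (0.59 ± 0.048 (SE, adjusted p = 5.97e-08) and -0.23 ± 0.048 (SE, adjusted p = 0.00125)). Cox10 had 14.6 and 14.7 RPKM in the Foxk2 overexpression libraries, against 9.69 and 10.3 RPKM in their controls. It had 9.27 and 8.79 RPKM in the Foxk2 knockdown libraries, against 11.2 and 10.6 RPKM in their controls, changes of 0.53 and -0.26. Cox15, which converts heme O to heme A, was called lower in both knockdowns (-0.11 and -0.18) and was not called in the overexpressions (0.02 and 0.09). Cox18, the insertase for the second mitochondrially encoded subunit, rose in both overexpressions (0.32 and 0.42) and fell in the Foxk1 knockdown (-0.15, with overlapping ranges).

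The copper-handling genes Cox11, Cox17 and Cox19 gave 2 calls in 12 tests, where 33.7% to 47.8% of all genes tested were called per comparison. Cox11 rose in the libraries labelled Foxk1 overexpression (0.43) and Cox17 in the Foxk2 overexpression (0.53). Cox16 fell in the Foxk2 knockdown (-0.41), and Cox20 rose in the Foxk2 overexpression (0.45) and fell in the Foxk2 knockdown (-0.45). Exons of Cox11, Cox16 and Cox20 overlap other genes over 48.4%, 56.8% and 91.1% of their length, so their counts are uncertain, as the strand of the libraries is not given in the sources used here. Cox14, which couples synthesis of the first mitochondrially encoded subunit to assembly, rose in 1 comparison. Cox14 had 269.6, 296 and 264 RPKM in the libraries labelled Foxk1 overexpression, against 233, 217 and 253 RPKM in their controls. It had 185 and 185 RPKM in the Foxk2 overexpression libraries, against 188 and 217 RPKM in their controls. It rose in the first (0.24 ± 0.066 (SE, adjusted p = 0.0072)), and in the second its value was -0.12 (adjusted p = 0.248, but 0.00217 after quantile normalization). Cox14 had 272, 263 and 236 RPKM in the Foxk1 knockdown libraries, against 257, 254 and 249.9 RPKM in their controls. It had 183 and 171 RPKM in the Foxk2 knockdown libraries, against 189 and 189 RPKM in their controls, neither called.

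ATP synthase has a catalytic F1 head, a peripheral stalk, a membrane part and a rotating c ring. Of its 17 members 12 rose in the libraries labelled Foxk1 overexpression and 9 fell in the Foxk1 knockdown. In the Foxk2 overexpression 14 rose, and in the Foxk2 knockdown 11 fell. Of all genes tested, 24.1% and 23% rose in the overexpressions, and 15.5% and 15.7% fell in the knockdowns (Foxk1 first). Atp5a1 and Atp5b, for the alpha and the catalytic beta subunit, were called in all 4. Atp5a1 had 513, 526 and 504 RPKM in the libraries labelled Foxk1 overexpression, against 377, 389 and 389.8 RPKM in their controls. It had 296, 294 and 293 RPKM in the Foxk1 knockdown libraries, against 335, 337 and 335 RPKM in their controls. The changes were 0.42 and -0.19. Atp5a1 had 630.004 and 656 RPKM in the Foxk2 overexpression libraries, against 398 and 417 RPKM in their controls. It had 407 and 405 RPKM in the Foxk2 knockdown libraries, against 449 and 458 RPKM in their controls, changes of 0.66 and -0.16. Groups did not overlap in any of these 4 comparisons. Atp5b had 899, 924 and 898 RPKM in the libraries labelled Foxk1 overexpression, against 757, 779 and 793 RPKM in their controls. It had 559.6, 564 and 564 RPKM in the Foxk1 knockdown libraries, against 631, 608 and 618 RPKM in their controls. Both lay apart, but the rise of 0.22 was 0.012 after quantile normalization (adjusted p = 0.909). Atp5b had 1039 and 1118 RPKM in the Foxk2 overexpression libraries, against 805 and 836 RPKM in their controls. It had 765 and 767 RPKM in the Foxk2 knockdown libraries, against 849 and 864 RPKM in their controls, changes of 0.39 and -0.16.

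Atp5c1 encodes gamma, the rotor shaft within the head. Atp5c1 had 181, 176 and 173 RPKM in the libraries labelled Foxk1 overexpression, against 151, 161 and 150.2 RPKM in their controls. It had 125, 129 and 126 RPKM in the Foxk1 knockdown libraries, against 135, 139.6 and 144 RPKM in their controls. The changes of 0.20 and -0.13 were called, and neither was after quantile normalization (adjusted p = 0.0541 and 0.114). Atp5c1 had 161 and 179 RPKM in the Foxk2 overexpression libraries, against 112 and 111 RPKM in their controls. It had 104 and 111 RPKM in the Foxk2 knockdown libraries, against 127 and 129 RPKM in their controls, changes of 0.60 and -0.25 without overlap. Atp5d (delta) was called in all but the Foxk2 knockdown, with 0.13, -0.19 and 0.36 in the other 3; the first was -0.0075 and not called after quantile normalization. Atp5e (epsilon) was called in none. Atp5e had 87.6 and 93.7 RPKM in the Foxk2 overexpression libraries, against 59.9 and 70.9 RPKM in their controls. It had 60.98 and 59.5 RPKM in the Foxk2 knockdown libraries, against 68.4 and 70.2 RPKM in their controls. The Foxk2 groups did not overlap (0.47, adjusted p = 0.054, and -0.20), and the first was called with voom (adjusted p = 3.91e-04) and under 5 other settings (0.00743 to 0.0477), the second in a model of the 2 groups alone (0.0104). Atp5e had 17.3, 14.5 and 14.9 RPKM in the libraries labelled Foxk1 overexpression, against 14.1, 19.2 and 15.8 RPKM in their controls. It had 8.60, 12.1 and 14.8 RPKM in the Foxk1 knockdown libraries, against 9.51, 12.4 and 11.5 RPKM in their controls, with overlap in both.

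In the peripheral stalk, Atp5f1 (subunit b), Atp5j (coupling factor 6) and Atp5o (the oligomycin sensitivity protein) were called in all 4 comparisons, each with no overlap. Atp5f1 had 102, 100.1 and 101 RPKM in the libraries labelled Foxk1 overexpression, against 80.3, 82.9 and 78.2 RPKM in their controls. It had 60.9, 62.3 and 58.2 RPKM in the Foxk1 knockdown libraries, against 64.5, 66.6 and 67.8 RPKM in their controls. Its changes were 0.33 and -0.13. Atp5f1 had 64.2 and 68.2 RPKM in the Foxk2 overexpression libraries, against 37.9 and 38.7 RPKM in their controls. It had 36.9 and 37.8 RPKM in the Foxk2 knockdown libraries, against 44.8 and 46.4 RPKM in their controls, changes of 0.78 ± 0.04 and -0.29 ± 0.04. Atp5j had 91.9, 96.6 and 91.8 RPKM in the libraries labelled Foxk1 overexpression, against 79.98, 80.6 and 82.9 RPKM in their controls. It had 64.1, 64.6 and 60.2 RPKM in the Foxk1 knockdown libraries, against 70.1, 71.6 and 72.3 RPKM in their controls. These are changes of 0.20 and -0.18. Atp5j had 81.6 and 82.7 RPKM in the Foxk2 overexpression libraries, against 51.3 and 52.5 RPKM in their controls. It had 50.2 and 51.8 RPKM in the Foxk2 knockdown libraries, against 64.3 and 62.8 RPKM in their controls, changes of 0.66 and -0.31. Copies or overlapping transcripts cover 33.4% of Atp5j and 48.8% of Atp5o. Atp5o had 141, 146 and 132 RPKM in the libraries labelled Foxk1 overexpression, against 107, 108 and 107 RPKM in their controls. It had 87.3, 88.6 and 84.7 RPKM in the Foxk1 knockdown libraries, against 96.3, 98.1 and 102 RPKM in their controls. The changes were 0.38 and -0.18. Atp5o had 134 and 136 RPKM in the Foxk2 overexpression libraries, against 82.4 and 86.8 RPKM in their controls. It had 88.2 and 81.5 RPKM in the Foxk2 knockdown libraries, against 93.2 and 95.1 RPKM in their controls, changes of 0.67 and -0.15, the second not called in a model of the 2 groups alone (adjusted p = 0.0602). Atp5h (subunit d) rose in both overexpressions (0.30 and 0.47) and fell in the Foxk2 knockdown (-0.26).

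Among the membrane subunits, Atp5k (subunit e), Atp5l (subunit g), Atp5j2 (subunit f) and Atp5mpl (the 6.8 kDa proteolipid) had a wider change in the Foxk2 overexpression than in the labelled Foxk1 overexpression, by the test of the difference given below. Atp5k had 254 and 237 RPKM in the Foxk2 overexpression libraries, against 127 and 141 RPKM in their controls. It had 116 and 129 RPKM in the Foxk2 knockdown libraries, against 155 and 165 RPKM in their controls. The groups lay apart, with 0.87 ± 0.097 (SE, adjusted p = 2.29e-06) and -0.38 ± 0.097 (SE, adjusted p = 0.00597). Atp5k had 197, 209 and 192 RPKM in the libraries labelled Foxk1 overexpression, against 157, 189 and 176 RPKM in their controls. It had 123, 141 and 142 RPKM in the Foxk1 knockdown libraries, against 127, 151 and 139 RPKM in their controls. The rise of 0.20 only just passed (adjusted p = 0.0481) and did not under 5 of the other settings or in 5 of the 6 fits that left out a library (adjusted p of 0.05003 to 0.518 over these 10), and the knockdown value was -0.03. Atp5mpl had 304 and 317 RPKM in the Foxk2 overexpression libraries, against 174 and 174 RPKM in their controls. It had 165 and 169 RPKM in the Foxk2 knockdown libraries, against 207 and 209 RPKM in their controls. The changes were 0.83 and -0.32, both called. Atp5mpl had 323, 308 and 289.5 RPKM in the libraries labelled Foxk1 overexpression, against 295, 302 and 279 RPKM in their controls. It had 239, 260.4 and 267 RPKM in the Foxk1 knockdown libraries, against 226, 268 and 246 RPKM in their controls, with overlap and no call in either. Atp5l, 72.2% of whose transcript is covered by copies, rose in both overexpressions (0.21, but -0.00019 and not called after quantile normalization, and 0.70) and fell in the Foxk2 knockdown (-0.36), and Atp5j2 rose in the Foxk2 overexpression alone (0.71).

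The c ring subunit is made from 3 genes that differ in their targeting sequence and give the same mature protein. Atp5g3 held 59.1 to 69.7% of their summed level over all libraries, Atp5g2 29.6 to 37.4% and Atp5g1 0.727 to 4.23%. Atp5g3 had 302, 304 and 289.7 RPKM in the libraries labelled Foxk1 overexpression, against 249.8, 256 and 256 RPKM in their controls. It had 189, 196 and 198 RPKM in the Foxk1 knockdown libraries, against 202, 215 and 217 RPKM in their controls. Its changes were 0.23 and -0.12, the second with an adjusted p of 0.0204 and of 0.418 after quantile normalization. Atp5g3 had 336 and 366 RPKM in the Foxk2 overexpression libraries, against 234 and 244 RPKM in their controls. It had 212 and 215 RPKM in the Foxk2 knockdown libraries, against 264 and 270.3 RPKM in their controls, changes of 0.55 and -0.32. Atp5g2 had 156, 163 and 159 RPKM in the libraries labelled Foxk1 overexpression, against 129, 126 and 130.1 RPKM in their controls. It had 105, 100.1 and 101 RPKM in the Foxk1 knockdown libraries, against 127, 118 and 116 RPKM in their controls. Both passed (0.31 and -0.23). Atp5g2 had 158 and 155 RPKM in the Foxk2 overexpression libraries, against 130.3 and 141 RPKM in their controls. It had 129.6 and 128 RPKM in the Foxk2 knockdown libraries, against 131 and 133 RPKM in their controls, a rise of 0.21 and an uncalled -0.03. Atp5g1, the form that varies with tissue and physiological state, was not called in any comparison. Atp5g1 had 15.5, 15.1 and 14.01 RPKM in the libraries labelled Foxk1 overexpression, against 15.5, 14.9 and 14.98 RPKM in their controls. It had 12.4, 13.1 and 11.8 RPKM in the Foxk1 knockdown libraries, against 12.4, 12.8 and 13.001 RPKM in their controls. Groups overlapped in both. Atp5g1 had 3.62 and 4.13 RPKM in the Foxk2 overexpression libraries, against 4.03 and 4.92 RPKM in their controls. It had 4.30 and 3.98 RPKM in the Foxk2 knockdown libraries, against 4.16 and 4.34 RPKM in their controls. Overlap was found here too, and the first value, -0.18, was called lower with voom (adjusted p = 0.0448). Atp5s, a coupling factor gene, was not called either (-0.14 to 0.13).

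In all, 17 of the 48 members (35.4%) were called in all 4 comparisons, each higher in both overexpressions and lower in both knockdowns: Cycs, Cyc1, Uqcrc2, Uqcrfs1, Uqcrq, Cox4i1, Cox6a1, Cox7a2, Cox7c, Cox10, Atp5a1, Atp5b, Atp5c1, Atp5f1, Atp5g3, Atp5j and Atp5o. Of all genes tested, 723 (4.52%) had that pattern. The opposite one was found in 0 members and in 1116 genes (6.98%). After quantile normalization 10 of the 17 kept all 4 calls; leaving out 1 library gave 14 to 18 such members. The members called in no comparison were Atp5e, Atp5g1, Atp5s, Cox19 and Cox4i2 (5 of 48, or 10.4%, against 27.9% of all genes).

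Not every call held under every other setting and without every library. In the libraries labelled Foxk1 overexpression 21 of 32 calls did, and the 11 that did not (Atp5b, Atp5c1, Atp5d, Atp5k, Atp5l, Cox4i1, Cox5b, Cox6b1, Cox6c, Cox7c and Uqcrfs1) were all lost after quantile normalization. In the Foxk1 knockdown 15 of 25 did, with Atp5c1, Atp5g3, Cox15, Cox18, Cox6a1, Cox8a, Uqcr10, Uqcr11, Uqcrfs1 and Uqcrh the exceptions. In the Foxk2 overexpression 35 of 39 did, all but Atp5g2, Cox20, Cox5b and Uqcr10. In the Foxk2 knockdown 20 of 34 did, the exceptions being Atp5k, Atp5o, Cox15, Cox16, Cox20, Cox5a, Cox6a1, Cox6b1, Cox7c, Cox8a, Uqcr10, Uqcr11, Uqcrc1 and Uqcrh.

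Effects of the Foxk1 and Foxk2 manipulations were compared as a difference of log2 fold changes, Foxk1 minus Foxk2. For the overexpressions 29 members differed, 28 of them with a lower effect in the libraries labelled Foxk1 overexpression and 1, Cox14, with a higher one, where 25.1% of all genes differed, 13.5% lower and 11.6% higher. The differences reached -0.76 ± 0.092 for Atp5mpl (adjusted p = 3.10e-05), -0.70 ± 0.084 for Uqcrb, -0.67 ± 0.12 for Atp5k, -0.64 ± 0.075 for Cox7c and -0.49 ± 0.11 for Cycs. Cyc1 (-0.16 ± 0.061) and Cox10 (0.06 ± 0.075) were not called as different. For Cox14 the difference was 0.36 ± 0.10 (adjusted p = 0.0192). For the knockdowns 9 members differed, 8 with a higher and 1 with a lower value in the Foxk1 knockdown (14.3% of all genes differed, 6.68% higher and 7.63% lower). Uqcrb (0.50 ± 0.084), Cox7b (0.49 ± 0.064), Atp5mpl (0.37 ± 0.092), Cox6c, Atp5l, Uqcrc2, Atp5h and Atp5g3 were among the 8, and the 1 was Atp5g2 (-0.20 ± 0.059). Under every other setting and without any 1 library 22 of the 29 overexpression differences held, without Atp5b, Atp5d, Atp5h, Cox14, Cox17, Cox8a and Uqcrc1, and 2 of the 9 knockdown differences (Uqcrb and Cox7b). Without the second control library of the Foxk2 knockdown 2 knockdown differences were called, and without its first knockdown library 4.

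**Figure D4:**
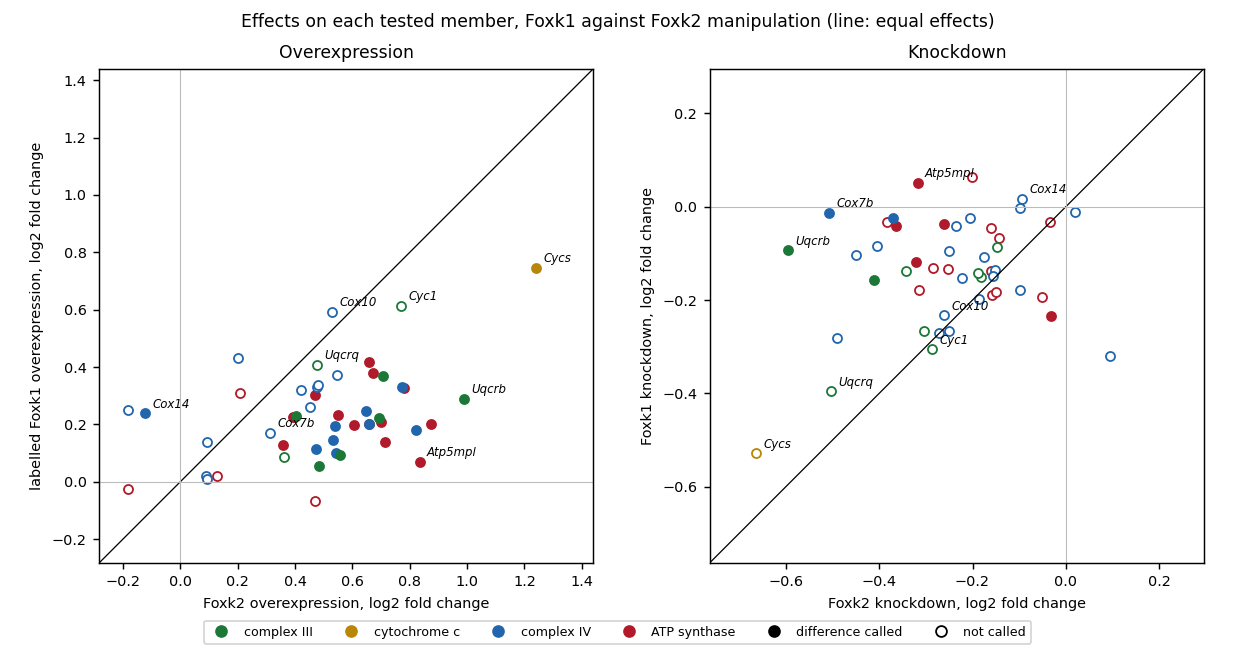
Log2 fold change of each tested member in the Foxk1 experiment (vertical) against that in the Foxk2 experiment (horizontal), for overexpression (left) and knockdown (right), filled where the difference was called, with a line of equal effects. In the left panel 28 called members lie below the line and Cox14 above it, and in the right panel 8 lie above and Atp5g2 below.

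Across the 48 members, effects of overexpression and knockdown ran against each other (Spearman's rho of -0.51 for Foxk1 and -0.55 for Foxk2; -0.43 and -0.54 over all genes). Effects of the Foxk1 and the Foxk2 overexpression had a rho of 0.30 over members (0.56 over all genes), and those of the 2 knockdowns 0.071 (0.50 over all genes). These points share libraries and are described without a test.

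Factor and experiment cannot be told apart in these comparisons, because the Foxk1 and Foxk2 libraries were separate sets whose controls differed. Of the 48 members, 12 had a median in the Foxk2 controls at least 2 fold below that in the Foxk1 controls, 7 of them among the 10 with copies or overlaps of 30% or more, and 2 (Cox17 and Atp5e) at least 2 fold above. Cox20 ranged from 0.752 to 1.59 RPKM in the Foxk2 controls, against 48.0 to 54.0 RPKM in the Foxk1 controls. For Cox7c the controls had 16.2 to 17.3 RPKM in the Foxk2 set, against 249 to 360.1 RPKM in the Foxk1 set. Cycs ranged from 23.1 to 29.4 RPKM in the Foxk2 controls, against 89.98 to 134 RPKM in the Foxk1 controls. The reason for these gaps was not tested. Without the 10 uncertain members, 25 of 38 rose in the libraries labelled Foxk1 overexpression and 21 fell in the Foxk1 knockdown. Among the same 38, 31 rose in the Foxk2 overexpression and 26 fell in the Foxk2 knockdown. Their medians were 0.22, -0.13, 0.51 and -0.23 in the order of the comparisons. Of all genes tested, 24.1% and 23% rose in the overexpressions, and 15.5% and 15.7% fell in the knockdowns (Foxk1 first).

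Partners of these complexes outside the name rule were counted over lists of known partners. Of all genes tested, 47.8% were called in the libraries labelled Foxk1 overexpression (24.1% higher, 23.8% lower). In the Foxk1 knockdown 35.9% were called (20.4% and 15.5%). The Foxk2 overexpression had 45% (23% and 22%) and the Foxk2 knockdown 33.7% (18% and 15.7%). Each list from here on is small, and its counts are to be read beside these shares. A list of further complex IV assembly factors also named the subunit gene Ndufa4, the heme lyase gene Hccs and the mRNA stability gene Lrpprc. Of 20 genes from it, 10 rose and 1 fell in the libraries labelled Foxk1 overexpression, and 0 rose and 9 fell in the Foxk1 knockdown. In the Foxk2 overexpression 11 rose and 1 fell, and in the Foxk2 knockdown 0 rose and 8 fell. Higd1a, a hypoxia-induced protein that binds complex IV, had the widest change among these 20 in all 4 comparisons. Higd1a had 74.8, 72.4 and 73.6 RPKM in the libraries labelled Foxk1 overexpression, against 40.02, 44.1 and 43.5 RPKM in their controls. It had 26.5, 28.4 and 24.2 RPKM in the Foxk1 knockdown libraries, against 44.3, 50.6 and 44.7 RPKM in their controls. The changes were 0.78 and -0.81, beside 0.76 and -0.35 in the Foxk2 experiments. Of 6 complex III assembly factors, 2 rose and 1 fell in the libraries labelled Foxk1 overexpression, 0 were called in the Foxk1 knockdown, 3 rose and 1 fell in the Foxk2 overexpression, and 2 fell in the Foxk2 knockdown. Uqcc3, needed for cytochrome b to be built in, was the 1 that fell in both overexpressions (-0.22 and -0.37).

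Of 8 complex II genes, which feed electrons to the same quinone pool, 4 rose in the libraries labelled Foxk1 overexpression, 5 fell in the Foxk1 knockdown, 7 rose in the Foxk2 overexpression and 6 fell in the Foxk2 knockdown. Sdhb, its iron-sulfur subunit, had log2 changes of 0.53, -0.25, 1.00 and -0.35, all called. Of 13 coenzyme Q synthesis genes 6 rose and 1 fell, 6 fell, 7 rose and 7 fell in the same order of comparisons, and Coq8a, an atypical kinase of that pathway, had 1.29 in the Foxk2 overexpression and -0.88 in the Foxk2 knockdown. A further list of 17 genes mixed regulators of nuclear respiratory genes with others. It held Tfam, Tfb1m, Tfb2m and Polrmt, which act on mitochondrial DNA, and Lonp1, which encodes a mitochondrial protease. Of the 17, 8 rose and 2 fell in the libraries labelled Foxk1 overexpression, and 3 rose and 7 fell in the Foxk1 knockdown. In the Foxk2 overexpression 9 rose and 4 fell, and in the Foxk2 knockdown 4 rose and 4 fell. The coactivator Ppargc1b had 0.56, -0.42 and 0.66 in the first 3 and an uncalled -0.10 in the Foxk2 knockdown. The nuclear receptor Esrra had 0.47, -0.32, 0.54 and an uncalled -0.08. Nrf1 was called in the libraries labelled Foxk1 overexpression alone (0.32).

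Atpif1, whose protein inhibits ATP hydrolysis by ATP synthase, moved against the synthase genes in all 4 comparisons. Atpif1 had 16.3, 17.3 and 15.6 RPKM in the libraries labelled Foxk1 overexpression, against 21.9, 20.1 and 23.6 RPKM in their controls. It had 39.7, 39.8 and 36.4 RPKM in the Foxk1 knockdown libraries, against 30.2, 32.5 and 32.6 RPKM in their controls. The fall and the rise were -0.40 ± 0.059 (SE, adjusted p = 4.27e-05) and 0.28 ± 0.059 (SE, adjusted p = 0.00168), with no overlap. Atpif1 had 11.1 and 10.8 RPKM in the Foxk2 overexpression libraries, against 15.4 and 14.4 RPKM in their controls. It had 17.9 and 17.9 RPKM in the Foxk2 knockdown libraries, against 12.6 and 14.03 RPKM in their controls, changes of -0.43 and 0.42, again apart. Atpif1 came from a list of assembly and inhibitor genes that also held the subunit gene Usmg5. Usmg5 had 312 and 307 RPKM in the Foxk2 overexpression libraries, against 179 and 150 RPKM in their controls. In the Foxk1 knockdown it had 560, 509 and 487 RPKM, overlapping the 508, 569 and 564 RPKM of its controls. Of this list only Atpif1, Usmg5 and Fmc1 are described. Of the other 6 genes in that list of assembly and inhibitor genes, Fmc1 was called in the direction of the synthase genes in all 4 (0.23, -0.34, 0.47 and -0.33), the first lost after quantile normalization and the last in 2 of the 4 fits that left out a library.

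**Figure D5:**
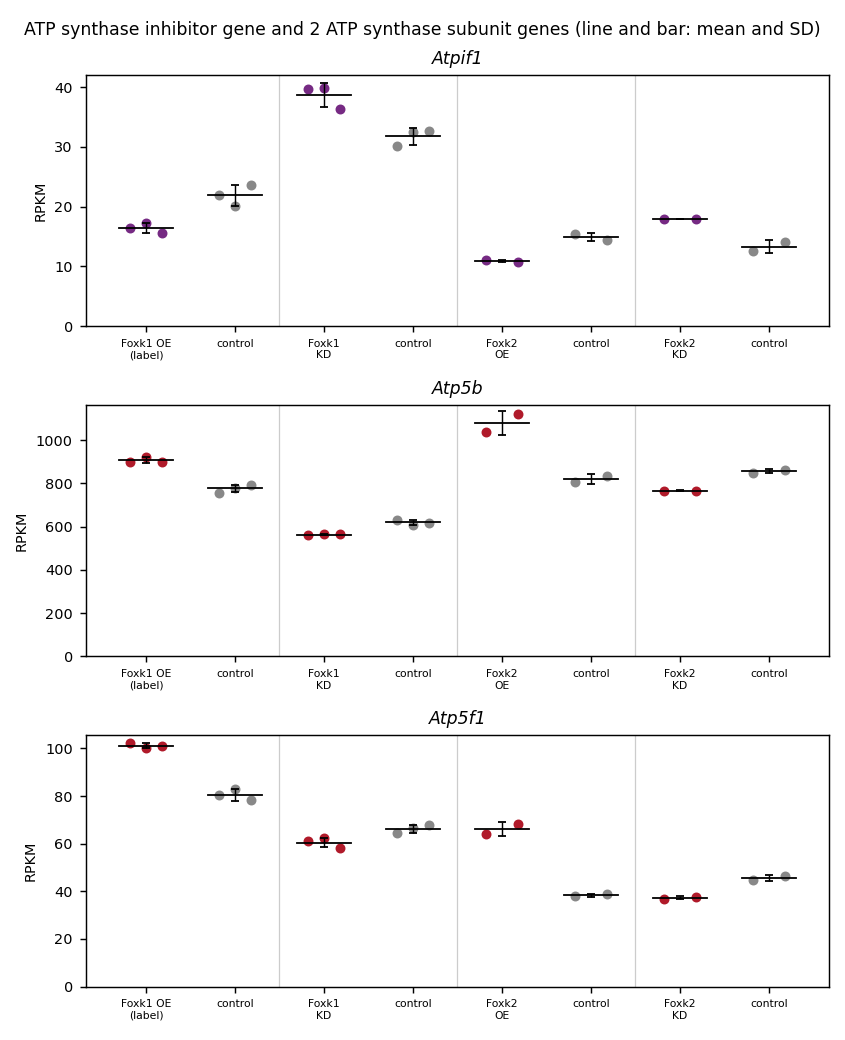
RPKM per library of Atpif1 and of the ATP synthase subunit genes Atp5b and Atp5f1 (points), with group mean and SD, each manipulation left of its grey controls. Atpif1 lies below its controls in both overexpressions and above them in both knockdowns, and the subunit genes lie the other way round.

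The mitochondrially encoded subunits of the same complexes were counted apart. Of 6 genes, 0 were called in either overexpression, 1 rose in the Foxk1 knockdown (mt-Cytb, 0.31), and 5 rose and 1 (mt-Cytb, -0.31) fell in the Foxk2 knockdown. In the Foxk2 libraries, replicates of one group differed widely for 4 of them. mt-Co2 had 11729 and 1525 RPKM in the Foxk2 overexpression libraries, against 11312 and 10333 RPKM in their controls. It had 4732 and 10779 RPKM in the Foxk2 knockdown libraries, against 737 and 113 RPKM in their controls. The mt-Co2 rise in the Foxk2 knockdown rests on control libraries that differed several-fold from each other and from the overexpression controls. So do the rises of mt-Co3, mt-Atp6 and mt-Atp8. Those knockdown controls had 533 and 74.8 RPKM of mt-Co3, 736 and 98.6 RPKM of mt-Atp6, and 91.5 and 16.9 RPKM of mt-Atp8. Near-identical copies were not sought for the mitochondrially encoded genes. The level of mt-Co1 was steadier, with 15998 and 11302 RPKM in the Foxk2 overexpression libraries, against 12288 and 10802 RPKM in their controls, and with 7663 and 10637 RPKM in the Foxk2 knockdown libraries, against 6822 and 6421 RPKM in their controls. The mt-Co1 rise in the Foxk2 knockdown (0.45, adjusted p = 0.0276) was lost with no filter on low values, in a model of the 2 groups alone and in 3 of the 4 fits that left out a library of that comparison. Both mt-Cytb calls were lost with no filter and after quantile normalization.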

How the data were processed

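The authors deposited RPKM values of 48440 genes in a table with 20 library columns. Per the submitters' processing notes, the processing named mm10, HISAT2 2.1.0, Picard 1.141, featureCounts, Subread 1.5.1 and edgeR. The strand is not given in the sources used here. GENCODE M21 gave symbols and exon lengths. RPKM multiplied by merged exon length gave whole reads within 0.1 read for 100% of non-zero values whose versioned identifier is in that release, which gave back the depth.

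The scale was log2(RPKM + 0.5), on which changes of low genes are understated. Genes with 0.5 RPKM or more in at least 2 libraries (15981) were fitted in limma 3.58.1 (R 4.3.3) with 8 group means, a mean trend and 12 residual degrees of freedom. Tests were two-sided, with Benjamini-Hochberg adjustment over all genes tested. Errors of fold changes are the model's SE. As no label names separate cultures, the p-values reflect spread among these libraries, possibly technical.

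Reads were simulated at the real group means and depths, with the same dispersion for every gene and no effect of library. In that setting the test kept to its nominal error rate for genes with many reads. Replicates that differ more, as for mt-Co2 in the Foxk2 libraries, were not simulated, so the rate on the real data is not shown. The test made more false calls than the threshold allows among genes with few reads, which enter the background shares. These shares were therefore also computed over genes with a mean of 200 reads or more over all 20 libraries. Folds of 1.25 were often missed, more so in the Foxk2 experiments, so a gene that is not called is not shown to be unaffected.

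Copies and overlaps were sought among GENCODE M21 transcripts with BLAST+ 2.17.0 (99% identity, 50 bases or more); members covered at 30% or more were treated as uncertain. Values per library were given for the 3 members moving most each way per comparison (higher group averaging at least 2 RPKM), members called in all 4 comparisons, and isoform sets. The members and lists were chosen with earlier results of these data known. Alternatives were other pseudocounts, filters, scalings, models, voom on recovered reads, a replicate block and leaving out each library. Plots were drawn with matplotlib 3.10.9 (Python 3.11.15, pandas 2.3.3).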

Additional observations from a re-analysis of the deposited data

Results flagged for a closer look

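For Atp5mpl the knockdown values had opposite signs, with the difference of log2 fold changes, Foxk1 minus Foxk2, at 0.37 ± 0.092 (SE, adjusted p = 0.0138 in limma). The value was 0.05 in the Foxk1 knockdown and -0.32 in the Foxk2 knockdown, and the first did not pass on its own. The difference was lost in 2 of the 10 fits that left out a library (adjusted p of 0.0553 and 0.0576).

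For Cox14 the overexpression values had opposite signs, with the difference at 0.36 ± 0.10 (SE, adjusted p = 0.0192 in limma). The value was 0.24 in the libraries labelled Foxk1 overexpression and -0.12 in the Foxk2 overexpression, and the second did not pass on its own. The difference was lost in 3 of the 10 fits that left out a library (adjusted p of 0.0509 to 0.123).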

How the results depend on the processing

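Alternatives were run for the 48 tested members in the 4 comparisons and in both differences, and for 14 other genes named in the report. After quantile normalization Atp5d and Atp5l had -0.0075 and -0.00019 in the libraries labelled Foxk1 overexpression, below 0 and not called where they had risen; the cause was not tested. No other called value of these genes changed sign in any alternative run. Of the alternative values 4903 stayed on their side of the threshold, 216 lost a call and 71 gained one. Quantile normalization took the most calls among settings that keep all libraries (22 lost, beside those 2), left 10 members called in all 4 comparisons and gave medians of 0.14 in the libraries labelled Foxk1 overexpression and 0.46 in the Foxk2 overexpression; the cause was not tested. With it 23, 19, 38 and 36 members were called in the order of the comparisons, and with voom on recovered reads 38, 27, 40 and 34.

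Leaving out 1 library gave 29 to 32 calls in the labelled Foxk1 overexpression, 17 to 25 in the Foxk1 knockdown, 37 to 41 in the Foxk2 overexpression and 21 to 30 in the Foxk2 knockdown. Medians then ran from 0.21 to 0.23, -0.15 to -0.11, 0.48 to 0.58 and -0.26 to -0.22. Differences ran from 24 to 28 for the overexpressions and 2 to 11 for the knockdowns, and 14 to 18 members were called in all 4 comparisons. An arm left with 1 library is assumed to vary like the other groups.

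Same-numbered libraries did not deviate together (correlations of -0.0858 to 0.0331), so no pairing by replicate number was evident. Deviations were taken from group means, so with 2 libraries per group same- and other-numbered correlations mirror each other. Pairing is therefore not excluded. With a replicate block 32, 24, 41 and 34 members were called in the order of the comparisons, and 27 and 9 differences.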
